A study of Homo sapiens with 30 samples.

Results

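The 36 genes described here code for structural subunits of respiratory complex I that are encoded in the nucleus. They were taken by symbol from the 60675 rows of a gene-level table of A549 cells, a human lung carcinoma line, without assembly factors, and all 36 passed the filter on low counts. Okbyeongpung-san, Soshiho-tang, Yijin-tang and Soyo-san are multi-herb decoctions of traditional Korean medicine, and the cells had been exposed for 24 h to their 70% ethanol extracts at 20, 100 or 500 µg/mL. Each dose of Yijin-tang and of Soshiho-tang was represented by 3 libraries, each dose of Okbyeongpung-san by 2 and each dose of Soyo-san by 1, and 3 vehicle libraries had 0.1% DMSO per the sample labels. The series text gives another DMSO concentration, and the labels do not say whether replicates came from separate cultures, so p-values measure only the spread between these libraries, which may be technical.

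Complex I is the first enzyme of the respiratory chain. It oxidises NADH in the mitochondrial matrix, passes the electrons along iron-sulfur clusters to ubiquinone and pumps protons across the inner membrane. Its matrix arm holds the catalytic core subunits, its membrane arm is built on the MT-ND proteins encoded by mitochondrial DNA, and nuclear-encoded accessory subunits surround both arms. The complex is assembled from products of both genomes, and NDUFB1 is a small membrane-spanning accessory subunit at the distal end of the membrane arm.

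The promoters of 3 members are shown because the members moved to different extents: NDUFB1, with the largest change, NDUFS6, which was higher in every comparison with vehicle, and NDUFS7, which was called in none. Each runs 5′ to 3′ on the strand of the gene, from 250 bases before the start of the transcript to 50 after it, from RefSeq on GRCh38.p14. Capitals mark matches to the NRF1 motif GCATGCG or the YY1 motif AAGATGG on either strand, and in CGCATGCG the motif and its reverse complement overlap.
NDUFB1 (chr14:92121657-92121956, minus strand): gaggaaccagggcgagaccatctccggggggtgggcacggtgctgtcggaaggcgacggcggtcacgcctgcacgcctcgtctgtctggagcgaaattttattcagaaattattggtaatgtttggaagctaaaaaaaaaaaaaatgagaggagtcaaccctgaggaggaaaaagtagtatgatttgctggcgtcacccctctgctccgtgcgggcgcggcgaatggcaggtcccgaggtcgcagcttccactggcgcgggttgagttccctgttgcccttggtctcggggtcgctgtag
NDUFS6 (chr5:1801157-1801456, plus strand): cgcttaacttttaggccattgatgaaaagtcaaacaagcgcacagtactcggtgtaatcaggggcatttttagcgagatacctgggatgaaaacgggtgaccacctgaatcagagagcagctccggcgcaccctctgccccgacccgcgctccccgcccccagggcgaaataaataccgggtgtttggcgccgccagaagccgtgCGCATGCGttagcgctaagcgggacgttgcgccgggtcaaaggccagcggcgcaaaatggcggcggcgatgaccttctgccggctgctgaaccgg
NDUFS7 (chr19:1383657-1383956, plus strand): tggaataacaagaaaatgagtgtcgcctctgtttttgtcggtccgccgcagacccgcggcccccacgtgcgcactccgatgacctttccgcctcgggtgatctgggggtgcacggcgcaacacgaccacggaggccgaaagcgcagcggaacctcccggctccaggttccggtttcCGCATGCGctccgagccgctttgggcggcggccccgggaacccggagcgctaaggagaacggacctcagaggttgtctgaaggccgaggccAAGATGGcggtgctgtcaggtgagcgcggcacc
The NDUFB1 window held none of the motifs searched, the NDUFS6 window held NRF1, and the NDUFS7 window held both NRF1 and YY1. Over the 39 promoter entries of the members, 15.4% held the NRF1 motif, against 3.91% of 35116 RefSeq promoters of the same length. The YY1 motif was in 23.1% of the member entries and 5.84% of all promoters, and the ETS motif CCGGAAG in 12.8% and 10.3%. These matches describe letters in the windows and were not set against the fold changes.

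Library totals were 24560759 to 38008463 expected counts in treated cells and 19833144 to 22327652 in vehicle cells. All vehicle libraries were thus shallower than all treated libraries. In comparisons with vehicle, treatment and any other difference that set the vehicle libraries apart cannot be told apart. Levels are given as CPM, counts as a share of the library total after TMM scaling, and a gene was called at an adjusted p under 0.05 in edgeR's quasi-likelihood test over 17459 genes (Benjamini-Hochberg). The labelled cell type was checked on its markers. The 7 epithelial markers summed to 6940 to 8830 CPM in treated cells and 8000 to 8330 CPM in vehicle cells. The 5 leukocyte markers summed to 6.87 to 18.4 CPM in treated cells and 12.7 to 15.3 CPM in vehicle cells, with CD3E at 0 in every library. The 5 fibroblast markers summed to 21.5 to 38.2 CPM in treated and 35.0 to 37.7 CPM in vehicle cells, and the 5 endothelial markers stayed at or below 0.532 CPM. In such bulk libraries a change in the share of cells and a change in RNA per cell cannot be told apart.

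Complex I subunit transcripts made up a larger part of every treated library than of any vehicle library. Summed over the 36 genes, they came to 2261 ± 132 CPM in the 27 treated libraries (lowest 2081, median 2219, highest 2488) and 1886 ± 15.3 CPM in vehicle libraries (SD, n = 3; 1879, 1903 and 1875 CPM). The lowest treated library therefore lay above the highest vehicle library, a difference described here with no test of the sum. The 11 accessory subunits of the distal membrane arm summed to 734 CPM in treated and 576 CPM in vehicle cells, and the 9 of the proximal membrane arm to 576 and 466 CPM. The 10 accessory subunits of the matrix arm summed to 481 CPM in treated and 408 CPM in vehicle cells. The 6 catalytic core members moved least and overlapped, at 441 to 508 CPM in treated libraries and 433 to 443 CPM in vehicle libraries.

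Against vehicle, between 10 and 26 of the 36 members were called higher and 0 were called lower in each of the 9 comparisons. These comparisons share the 3 vehicle libraries, so their counts are not independent of each other. With Soshiho-tang, 14 members were called higher at 20 µg/mL, where 4.06% of all genes tested were. At 100 µg/mL there were 16, against 5.57% of all genes, and at 500 µg/mL 15, against 17.2% of all genes. With Yijin-tang the counts were 15 at 20 µg/mL, 26 at 100 µg/mL and 16 at 500 µg/mL, beside 5.09%, 7.89% and 8.12% of all genes in that order of dose. With Okbyeongpung-san they were 21, 17 and 10 in the same order, beside 5.21%, 4.75% and 7.19% of all genes. As a share, 27.8% to 72.2% of members were called higher over the 9 comparisons, beside 4.06% to 17.2% of all genes. Of all genes, 3.96%, 5.19% and 16% were called lower with Soshiho-tang at 20, 100 and 500 µg/mL, beside 0 members. With Yijin-tang it was 5.16%, 6.82% and 7.56%, and with Okbyeongpung-san 4.95%, 4.74% and 7.76%, again beside 0 members. At an unadjusted p under 0.05, and by DESeq2, the number called lower was again 0 in all 9, and DESeq2 called 12 to 28 higher.

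Leaving out a single library moved these counts, and the number of all genes called moved with them: all-gene calls were fewer than with every library in 48 of 51 such fits. For Soshiho-tang at 20 µg/mL the count was 8 without vehicle replicate 2 or 3 or without treated replicate 1, and 7 without treated replicate 2. At 100 µg/mL it was 3 without treated replicate 1, where 1.92% of all genes were called higher, 9 without treated replicate 2 or vehicle replicate 1 or 2, and 10 without vehicle replicate 3. At 500 µg/mL it was 9 without vehicle replicate 3. For Yijin-tang at 20 µg/mL the count was 4 without treated replicate 3, where 1.42% of all genes were called higher, and 9, 8 and 7 without vehicle replicates 1, 2 and 3. At 100 µg/mL it was 15 without treated replicate 3 and 16 without vehicle replicate 1, and at 500 µg/mL 9 without treated replicate 1. In every one of these cases the members that were called were all higher in the treated cells. The share of all genes called higher was 1.6% to 14.1% without a vehicle library. For Soshiho-tang it was 1.41% and 1.8% at 20 µg/mL without treated replicates 1 and 2, and 2.68% at 100 µg/mL without treated replicate 2. For Yijin-tang it was 3.59% at 100 µg/mL without treated replicate 3 and 4.81% at 500 µg/mL without treated replicate 1.

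Okbyeongpung-san had 1 library from the batch lettered E in the titles, as had all vehicle libraries, and 1 from batch D at each dose. Within batch E, with batch D libraries left out, the count was 9 at 20 µg/mL, 10 at 100 µg/mL and 13 at 500 µg/mL, beside 1.48%, 1.9% and 11.2% of all genes in that order of dose. Each of these arms is then 1 library, assumed to vary like the other groups, as is each arm below that lacks replicate 2 or 3. At 20 µg/mL it was 7 without replicate 2 and 8 without replicate 3, and at 100 µg/mL 2 without replicate 2, where 0.54% of all genes were called higher, 10 without replicate 3 and 10 without vehicle replicate 3. At 500 µg/mL it was 3 without replicate 2, where 3.11% of all genes were called higher, and 4, 5 and 4 without vehicle replicates 1, 2 and 3. Without replicate 3 at 500 µg/mL, 11 members were called higher and 1 lower, beside 10.5% and 13.5% of all genes.

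**Figure D1:**
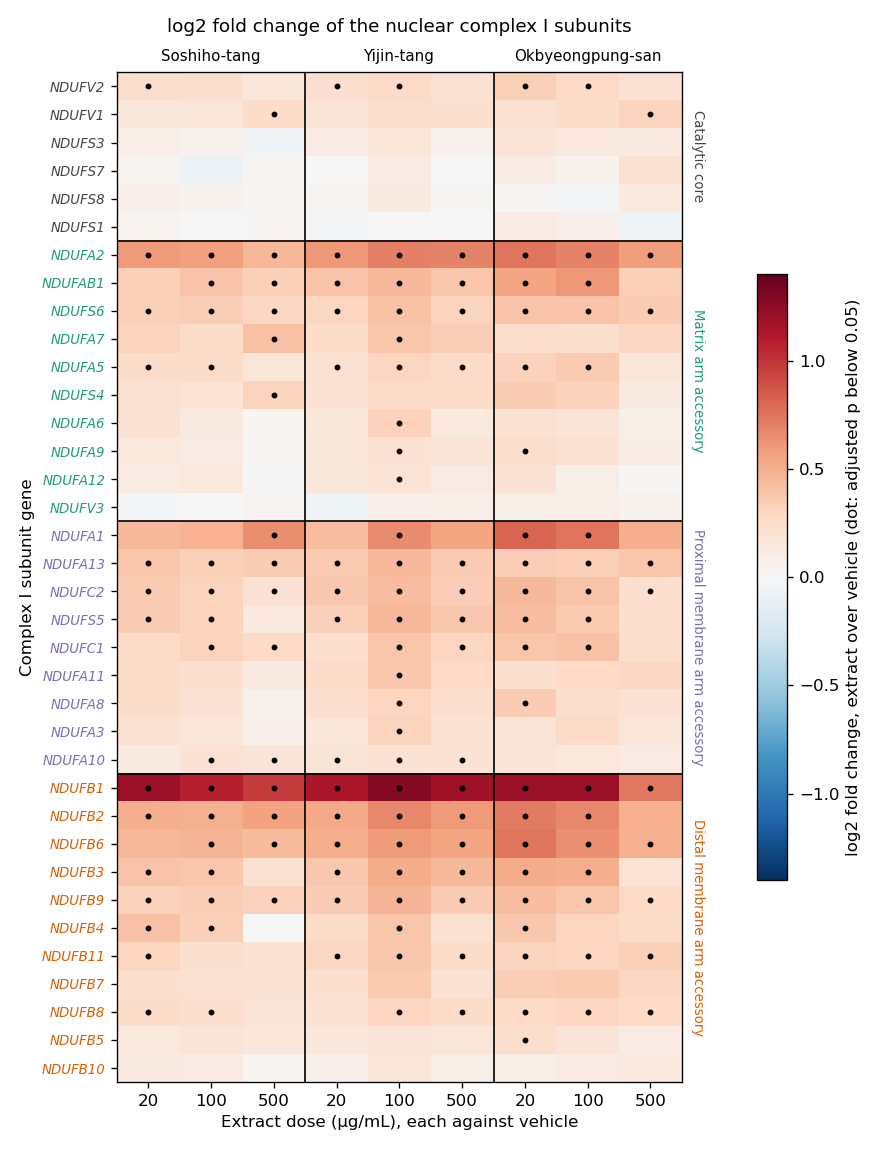
Colour gives the log2 fold change of each of the 36 subunit genes (rows, grouped by role) for 3 extracts at 20, 100 and 500 µg/mL against vehicle (columns), and a dot marks an adjusted p under 0.05. NDUFB1 is darkest in every column, the accessory groups are red almost throughout, and 4 of the 6 catalytic core rows carry no dot.

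The catalytic core was the group with the smallest changes. Of its 6 members, 0 or 1 was called higher in each comparison with vehicle, and the ratio of treated to vehicle means ran from 1.013 to 1.174. NDUFV1, which binds FMN and takes the electrons from NADH, had 87.0, 97.1 and 113 CPM as the lowest, median and highest treated library, and 82.1, 83.2 and 85.9 CPM in vehicle libraries. No treated library overlapped with vehicle, yet it was called in 2 comparisons, with Okbyeongpung-san at 500 µg/mL (log2 fold change 0.31 ± 0.095 SE, edgeR adjusted p = 0.033) and Soshiho-tang at 500 µg/mL (0.26 ± 0.086, adjusted p = 0.022). NDUFV2, which holds an iron-sulfur cluster beside that site, had 62.6, 70.5 and 79.6 CPM as the lowest, median and highest treated library and 58.7, 63.2 and 57.9 CPM in vehicle. It was called higher in 5 comparisons, with log2 fold changes of 0.16 to 0.33 over all 9, although 1 treated library lay within the vehicle range.

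The other 4 core members were called in none of the 9. NDUFS1, the largest subunit and a carrier of several iron-sulfur clusters, had 112, 130.0 and 139 CPM as the lowest, median and highest treated library and 127, 131 and 124 CPM in vehicle. Its log2 fold changes lay between -0.04 and 0.12. NDUFS7, whose cluster hands electrons to ubiquinone, had 23.1, 28.4 and 37.0 CPM in the same order, and 26.6, 26.3 and 29.3 CPM in vehicle. NDUFS8, another iron-sulfur subunit, had 72.9, 82.9 and 101 CPM, and 82.9, 82.8 and 78.3 CPM in vehicle. NDUFS3, which lies near the ubiquinone site, had 51.1, 59.9 and 67.3 CPM, and 56.0, 55.9 and 58.0 CPM in vehicle. For each of these 4 the treated libraries fell on both sides of the vehicle range, and the lowest adjusted p over the 9 comparisons was 0.134, for NDUFS3.

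NDUFB1 stood apart from its partners. It lies on the minus strand of chr14:92116122-92121917 (ENSG00000183648). In vehicle libraries it had 28.8, 30.7 and 28.3 CPM. With Soshiho-tang it had 64.1, 71.5 and 66.3 CPM at 20 µg/mL, 64.8, 60.9 and 61.3 CPM at 100 µg/mL and 56.5, 57.6 and 58.5 CPM at 500 µg/mL. All 9 libraries of that extract were well above all 3 vehicle libraries.

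With Yijin-tang NDUFB1 had 56.8, 60.4 and 76.7 CPM at 20 µg/mL, 77.9, 61.4 and 74.4 CPM at 100 µg/mL and 68.5, 62.6 and 69.7 CPM at 500 µg/mL. With Okbyeongpung-san it had 67.8 and 66.9 CPM at 20 µg/mL, 67.8 and 66.7 CPM at 100 µg/mL and 37.96 and 60.39 CPM at 500 µg/mL. The treated library nearest to vehicle was Okbyeongpung-san 500 µg/mL replicate 2, which was still above the highest vehicle library. Raw expected counts behind these levels were 1412 to 2389 in treated libraries and 550, 618 and 602 in vehicle libraries.

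The log2 fold changes of NDUFB1 over vehicle with Soshiho-tang were 1.20, 1.09 and 0.98 at 20, 100 and 500 µg/mL, with edgeR adjusted p of 4.57e-06, 1.99e-05 and 1.47e-06. With Yijin-tang they were 1.14, 1.28 and 1.19, with adjusted p of 1.77e-05, 9.77e-07 and 1.23e-06. With Okbyeongpung-san they were 1.21, 1.20 and 0.74, with adjusted p of 1.74e-05, 2.54e-05 and 0.00103. Standard errors were 0.122 to 0.135. In each comparison NDUFB1 ranked at 1 of the 36 members, the next member reaching 0.58 to 0.81 and the median of the other 35 lying between 0.18 and 0.33. Within batch E the Okbyeongpung-san values were 1.22, 1.21 and 0.39, each from 1 treated library and so without a replicate check, and the value at 500 µg/mL rests in part on replicate 3.

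A measure that needs no scaling between libraries gave the same order. NDUFB1 made up 2.78% ± 0.303 of all member counts in treated libraries (lowest 1.71%, median 2.80%, highest 3.21%; SD, n = 27) and 1.55% ± 0.0538 in vehicle libraries (SD, n = 3; 1.53%, 1.61% and 1.51%). The lowest treated library, again Okbyeongpung-san 500 µg/mL replicate 2, was above the highest vehicle library. Annotated copies of NDUFB1 elsewhere in the genome held 0.00584% of its counts over all libraries, and the annotation lists no gene overlapping it. Among the other members, copies held most for NDUFV2, at 1.27%.

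**Figure D2:**
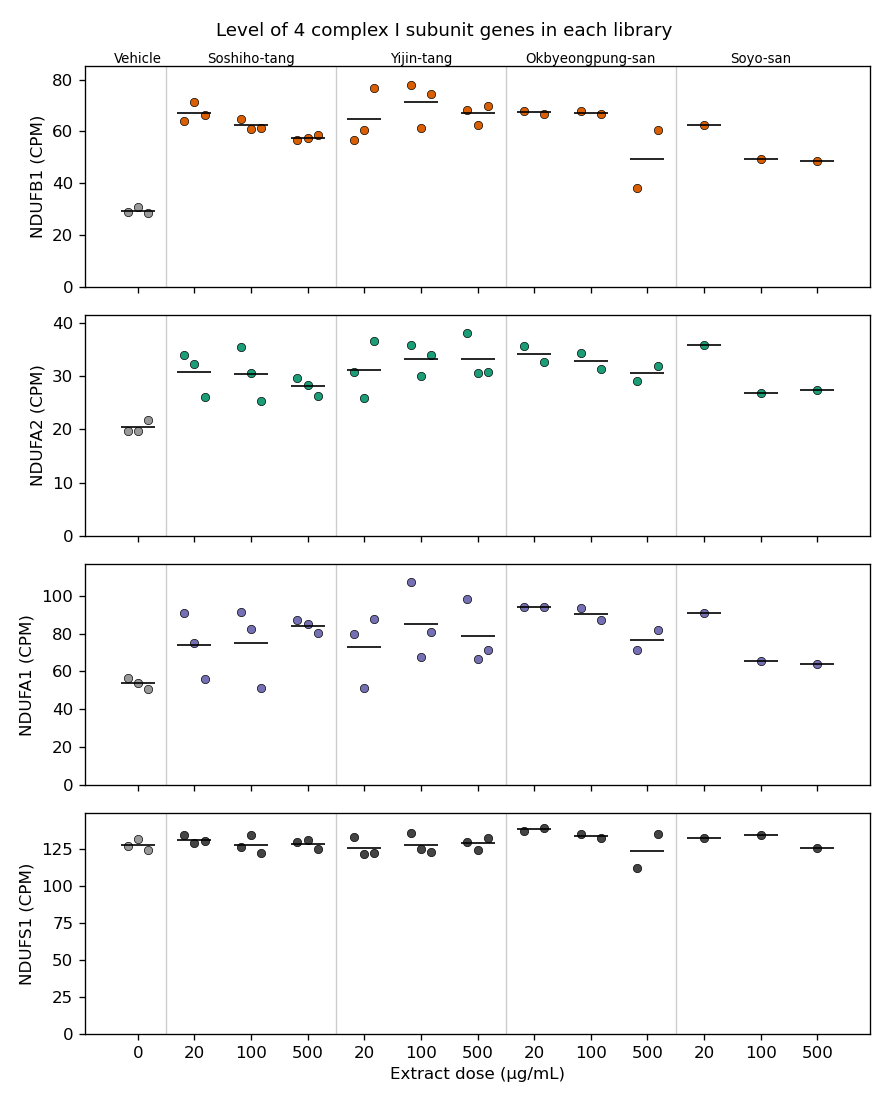
CPM in each library (points; vertical axes from 0) of NDUFB1, NDUFA2, NDUFA1 and NDUFS1 for vehicle and for rising doses of 4 extracts, with a bar at the group mean. All treated points of NDUFB1 and NDUFA2 lie above vehicle, 3 treated points of NDUFA1 lie at the vehicle level, and NDUFS1 is level throughout.

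Behind NDUFB1, the largest called changes belonged to NDUFA2, NDUFB2, NDUFA1 and NDUFB6. NDUFA2, a matrix arm subunit with a thioredoxin-like fold, had 25.3, 30.8 and 38.2 CPM as the lowest, median and highest treated library and 19.8, 19.7 and 21.7 CPM in vehicle. It was called higher in all 9 comparisons, with log2 fold changes of 0.46 to 0.75 and no overlap. NDUFB2, a distal membrane arm subunit, had 48.8, 70.4 and 80.7 CPM in the same order and 47.3, 48.2 and 44.7 CPM in vehicle. It was called higher in 8 comparisons, at 0.50 to 0.73 over all 9, without overlap but with treated libraries close to vehicle. NDUFB6, also of the distal arm, had 26.6, 35.1 and 41.1 CPM, against 24.2, 24.3 and 23.8 CPM in vehicle, and was called higher in 8. Unlike NDUFB1, these 4 genes, and also NDUFB3 and NDUFB9, overlap annotated genes on the opposite strand. So do many other members, among them NDUFS1 and NDUFS3, which were called in no comparison with vehicle. The strand setting of the counting is not given, so reads of the overlapping genes cannot be told apart there. Some members also overlap a gene on the same strand, such as NDUFB2 with ADCK2 and NDUFA13 with YJEFN3.

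NDUFA1, a small membrane subunit of the proximal arm, varied most between treated libraries. It had 51.0, 81.9 and 107 CPM as the lowest, median and highest treated library and 56.5, 53.7 and 50.7 CPM in vehicle, and it was called higher in 4 comparisons. The 3 treated libraries inside the vehicle range were Yijin-tang 20 µg/mL replicate 2 with 51.0 CPM, Soshiho-tang 100 µg/mL replicate 3 with 51.3 CPM and Soshiho-tang 20 µg/mL replicate 3 with 55.7 CPM. NDUFB2 was also lowest in these libraries, at 53.1, 48.8 and 53.2 CPM in that order. NDUFB1 was not low there, at 60.4, 61.3 and 66.3 CPM. In the same 3 libraries the mitochondrially encoded mRNAs made up 8.91%, 8.90% and 8.18% of counts, beside a median of 7.30% over treated libraries and 10.5% to 10.9% in vehicle. The highest share among treated libraries was 9.89%, in Okbyeongpung-san 500 µg/mL replicate 2. That library had 71.2 CPM of NDUFA1 and 61.6 CPM of NDUFB2, above vehicle for both. The part of the mitochondrially encoded mRNAs in the low NDUFA1 and NDUFB2 values was not tested.

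Other members were smaller but steady. NDUFB9, which has the LYR motif of proteins that bind the acyl carrier protein, had 101 to 130 CPM in treated libraries and was called higher in all 9 comparisons at log2 0.28 to 0.47. NDUFS6, a zinc-binding subunit of the matrix arm, NDUFC2 and NDUFA13 were likewise called higher in all 9. NDUFS6 ran from log2 0.29 to 0.41, NDUFC2 from 0.20 to 0.45 and NDUFA13 from 0.33 to 0.45, and all treated libraries of the 3 were above vehicle. NDUFAB1, the acyl carrier protein itself, was called higher in 7 comparisons at 0.33 to 0.61. Over all members, 6 were called in 9 comparisons, 2 in 8, 6 in 7, 1 in 6, 2 in 5, 2 in 4, 4 in 2, 6 in 1 and 7 in 0. The share of all genes called in as many comparisons is not given here. The 9 comparisons also share the vehicle libraries, so this tally is description only. Outside the core, the members called in 0 were NDUFB7 and NDUFB10, which face the intermembrane space, and NDUFV3, of the matrix arm.

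By role, all 27 treated libraries lay above all vehicle libraries for 7 of 11 distal and 4 of 9 proximal members. The same held for 3 of 10 matrix arm accessory and 1 of 6 core members. The share of all genes tested that did so is not given here, so these counts are description only. The median ratio of treated to vehicle means was 1.22 for distal, 1.23 for proximal and 1.19 for matrix arm accessory members and 1.05 for the core. The 3 accessory groups thus had similar medians, and the highest ratio in the distal group, 2.15, was that of NDUFB1.

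Transcript length was set beside these changes because NDUFB1 is short. Its 7 annotated transcripts have a median of 458 bases, and only NDUFA3, a subunit of the proximal arm at 440 bases, was shorter among the 36. NDUFA3 had 43.4 to 57.9 CPM in treated libraries and was called higher in 1 comparison, Yijin-tang at 100 µg/mL, with log2 fold changes of 0.07 to 0.31 over the 9. Among members of similar length NDUFB3 (525 bases) reached 0.52 and NDUFB7 (530 bases) 0.37, while NDUFA12 (517 bases) ran from -0.03 to 0.20. At the other end, NDUFS1 (2271 bases) and NDUFV3 (1802 bases) were close to 0 in all 9. NDUFA1 and NDUFB6, at 766 and 761 bases, moved more than most shorter members. These lengths are medians over annotated transcripts, and the order differs by longest transcript. NDUFB1 then has 1333 bases, and NDUFA9 (8363), NDUFA5 (5608) and NDUFA10 (4915) are longer than NDUFV3 (4676). NDUFA5 was called higher in 7 comparisons, NDUFA10 in 5 and NDUFA9 in 2.

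Across the 36 genes, Spearman's rho between fold change and median transcript length was -0.35 to -0.19 over the 9 comparisons, and -0.30 to -0.13 without NDUFB1. Over 17328 genes with a length it was -0.10 to -0.05. These are correlations across genes measured in the same libraries, which are not independent replicates. Of members under 700 bases, 8 to 16 of 21 were called higher, beside 5.59% to 17.3% of all genes under that length. Of the longer members 2 to 10 of 15 were, beside 3.68% to 17.2% of all longer genes. With an offset for length and GC content in the fit, the NDUFB1 log2 fold change over vehicle was 0.78 to 1.3 over the 9 comparisons, beside 0.74 to 1.28 without it. The same fit called 15 to 29 members higher per comparison with vehicle, beside 5.69% to 19% of all genes. The correlations, the split at 700 bases and the offset all used medians over annotated transcripts. Such a median can lie far below the longest transcript, as for the core member NDUFV1 (626 and 2528 bases). The part of transcript length in the fold changes was not tested.

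**Figure D3:**
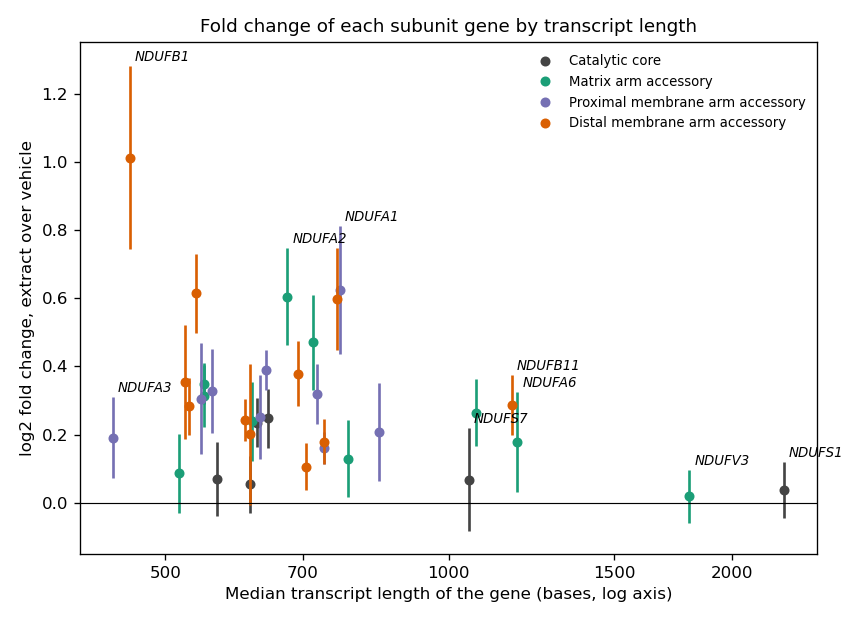
Each subunit gene is placed at its median transcript length (horizontal, log axis, bases), with a bar from its lowest to its highest log2 fold change over the 9 comparisons with vehicle and a point midway, coloured by role. NDUFB1 stands above all members of similar median length, and NDUFS1 and NDUFV3, the longest by that median, lie near 0.

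Levels were compared between members only per length. In treated cells NDUFC2 was the highest at 171 ± 12.9 CPM per kilobase of median transcript, then NDUFB9 at 164 ± 11.1 (SD, n = 27), which differ by less than their spread. In vehicle cells NDUFC2 was again at the top at 135 ± 3.78, beside NDUFV1 at 134 ± 3.13 (SD, n = 3). NDUFV3 was lowest in both, at 17.2 ± 1.07 in treated and 16.8 ± 0.389 in vehicle cells. NDUFB1 stood at rank 6 of 36 in treated cells, with 137 ± 18.9 CPM per kilobase, and at rank 19 in vehicle cells, with 63.9 ± 2.74. The order depended on the length used. Per kilobase of the longest transcript NDUFS5 was highest, at 156 in treated and 124 in vehicle cells, and NDUFC2 had 38.2 and 30.1, while NDUFV3 was again lowest. On that scale NDUFB1 had 47.2 in treated cells, at rank 14, and 22.0 in vehicle cells, at rank 26.

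Few members were called between 500 and 20 µg/mL of an extract, at shares near or below those of all genes tested. A member not called may still differ by a small amount. Comparing 500 with 20 µg/mL of Soshiho-tang, 2 of 36 members were called lower and 0 higher, where 10.2% of all genes were called lower and 10.3% higher. NDUFB4, a distal arm subunit, had 73.5, 78.1 and 81.8 CPM at 500 µg/mL, against 109, 108 and 93.5 CPM at 20 µg/mL (log2 fold change -0.41 ± 0.092 SE, edgeR adjusted p = 0.00201). At 500 µg/mL it was at the vehicle level, which was 77.8, 75.0 and 81.8 CPM. NDUFS5, a proximal arm subunit on the intermembrane side, had 77.6, 70.4 and 77.0 CPM at 500 µg/mL and 86.0, 93.3 and 80.8 CPM at 20 µg/mL (-0.21 ± 0.073, adjusted p = 0.0448). Neither pair of groups overlapped. The count was 1 without replicate 1 or 2 of either dose.

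With Yijin-tang, 0 members were called between 500 and 20 µg/mL by edgeR or DESeq2, and 0 at an unadjusted p under 0.05, where 0.286% of all genes were called higher and 0.418% lower. With Okbyeongpung-san 0 were called by edgeR, where 0.979% of all genes were called higher and 0.613% lower, 6 were lower at an unadjusted p under 0.05 and 2 were lower by DESeq2. Without replicate 3 at 500 µg/mL edgeR called 4 lower, beside 12.1% of all genes, and within batch E 2, beside 3.63%. These are 11.1% and 5.56% of the members, near the background, and the 500 µg/mL arm is 1 library in each. NDUFB1 differed by -0.46 ± 0.142 (edgeR adjusted p = 0.0977) between 500 and 20 µg/mL of Okbyeongpung-san and by -0.83 within batch E, where each arm is 1 library. Its difference was -0.23 ± 0.115 with Soshiho-tang (adjusted p = 0.181) and 0.05 ± 0.114 with Yijin-tang (adjusted p = 0.98).

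At 500 µg/mL, Soshiho-tang was set against Yijin-tang directly. Of the members, 2 were called lower with Soshiho-tang and 0 higher, where 6.29% of all genes were called lower and 6.31% higher. NDUFB3, a distal arm subunit, had 36.4, 34.3 and 35.8 CPM with Soshiho-tang and 43.0, 39.9 and 43.9 CPM with Yijin-tang (log2 fold change -0.25 ± 0.08 SE, edgeR adjusted p = 0.0408). NDUFS5 had 77.6, 70.4 and 77.0 CPM with Soshiho-tang and 93.4, 86.3 and 85.3 CPM with Yijin-tang (-0.23 ± 0.073, adjusted p = 0.0363). The groups did not overlap for either gene. The count was 1 without Yijin-tang replicate 2 and 0 without any other library of the pair. When the difference between 500 and 20 µg/mL was itself compared between extracts, 0 members were called in each of the 3 contrasts by edgeR, where 7.01%, 4.04% and 0.16% of all genes were. At an unadjusted p under 0.05 there were 0 for Soshiho-tang against Okbyeongpung-san, 3 for Soshiho-tang against Yijin-tang and 3 for Yijin-tang against Okbyeongpung-san, with DESeq2 not run on these contrasts.

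The subunits of complex I made from mitochondrial DNA moved the other way. Of the 7 MT-ND genes, 4 to 6 were called lower and 0 higher against vehicle, where 3.96% to 16% of all genes were called lower. Summed, they came to 25580 ± 3640 CPM in treated libraries (lowest 19790, highest 36330; SD, n = 27) and 42530 ± 1240 CPM in vehicle libraries (SD, n = 3), without overlap. The highest treated library was Okbyeongpung-san 500 µg/mL replicate 2, which was also lowest in NDUFB1. MT-ND3 was called in none of the 9 comparisons, with log2 fold changes of -0.15 to 0.17, and MT-ND6, encoded on the other strand of mitochondrial DNA, ran from -1.46 to -0.58. Per nuclear subunit count there were 11.4 ± 1.98 MT-ND counts in treated and 22.6 ± 0.649 in vehicle libraries. Leaving all mitochondrially encoded genes out of the library totals left the NDUFB1 log2 fold change over vehicle at 0.73 to 1.28 over the 9 comparisons.

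**Figure D4:**
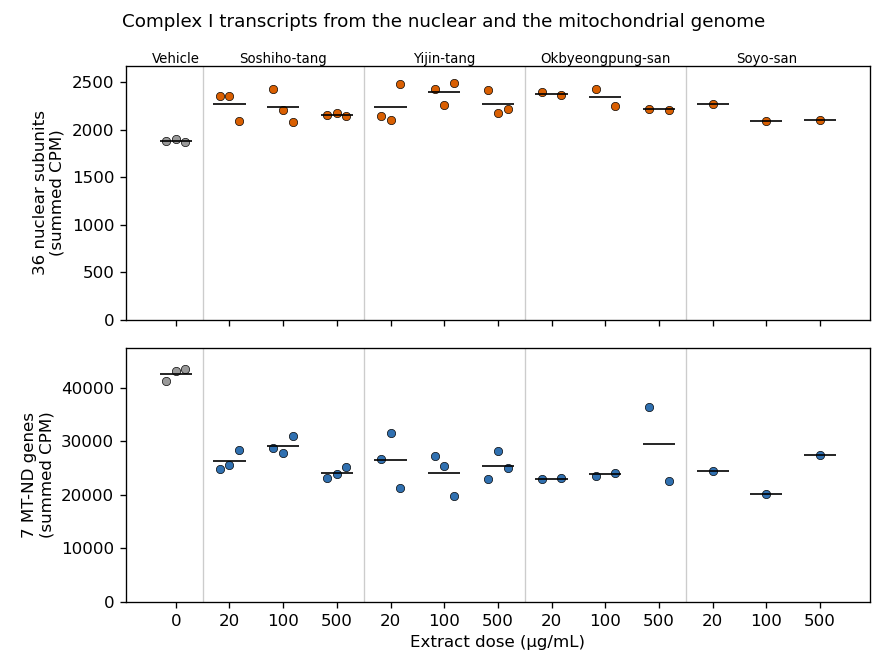
Summed CPM of the 36 nuclear subunit genes (top) and of the 7 MT-ND genes (bottom) in each library, for vehicle and for rising doses of 4 extracts, with a bar at the group mean and axes from 0. Every treated library lies above vehicle in the top panel and below it in the bottom panel.

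Neighbouring parts of the pathway were described on lists of their own. Of 11 nuclear-encoded subunits of complex IV, cytochrome c oxidase, 7 to 11 were called higher against vehicle and 0 lower, with list medians of log2 0.30 to 0.48. Of 9 subunits of complex III, 3 to 7 were called higher and 0 lower. Of 17 subunits of complex V, the ATP synthase, 2 to 12 were called higher, and 1 was lower in 3 comparisons. Of 18 complex I assembly factors, 2 to 8 were called higher, with medians of 0.12 to 0.20, and 1 lower in 1 comparison. Regulators of mitochondrial gene expression had 0 to 3 of 11 called higher, 0 to 2 lower and medians of -0.07 to 0.00. Of all genes tested, 4.06% to 17.2% were called higher and 3.96% to 16% lower over the 9 comparisons. The counts of these lists were not tested against that background. The median over all genes tested lay between 0.00 and 0.02 in the 9 comparisons, beside 0.18 to 0.35 for the 36 members.

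**Figure D5:**
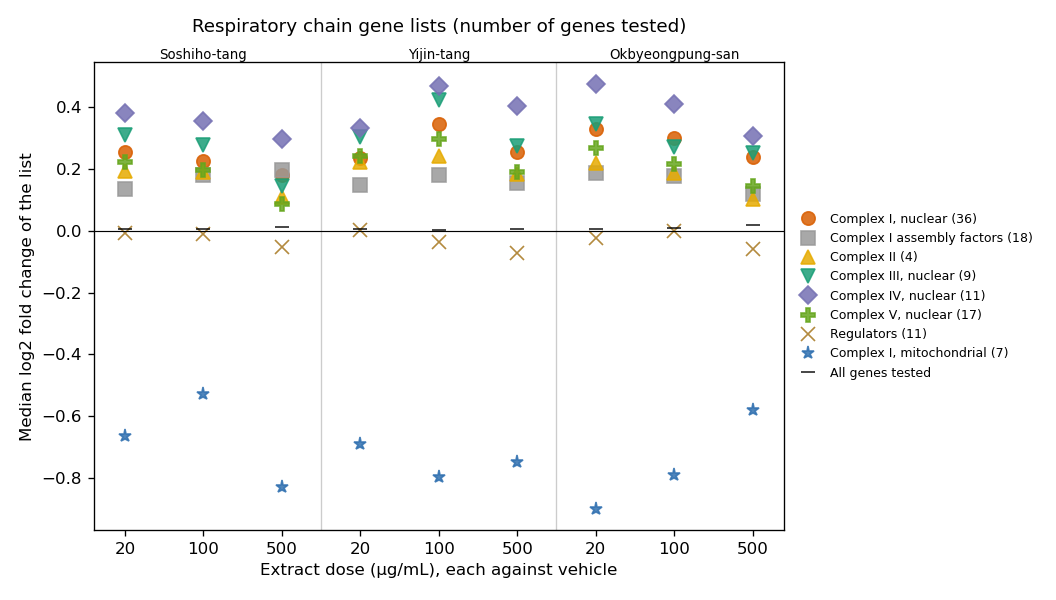
Median log2 fold change of each gene list (symbols; number of genes tested in the legend) for 3 extracts at 20, 100 and 500 µg/mL against vehicle. Nuclear-encoded lists of complexes I to V lie above 0 in each comparison, regulators lie near 0, and the MT-ND list lies between -0.90 and -0.53.

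Outside the 36, the genes whose level followed NDUFB1 most closely over the 30 libraries were RPS27, UQCRB, COX7C, BRK1 and RPL35A, with Pearson's r of log2(CPM + 0.5) of 0.955, 0.952, 0.940, 0.935 and 0.927. RPS27 and RPL35A code for ribosomal proteins, whose counts can be shared with near-identical copies, UQCRB for a complex III subunit, COX7C for a complex IV subunit and BRK1 for a subunit of the WAVE actin regulator. Within the 27 treated libraries alone r was 0.831, 0.896, 0.826, 0.780 and 0.774 in that order, so part of the likeness is the step between treated and vehicle. Among members NDUFB3 (0.885), NDUFC2 (0.884) and NDUFA5 (0.844) were most like NDUFB1, and NDUFS8 (0.0157) and NDUFS7 (-0.0157) least. UQCRB averaged 150.0 ± 12.3 CPM in treated and 108 ± 6.04 CPM in vehicle libraries. These are descriptions over libraries that share depth differences and treatment, and no p is attached to them.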

How the data were processed

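Gene-level expected counts were deposited by the authors for 30 libraries of A549 cells. Per the submitters' processing notes, RSEM 1.3.3 and STAR 2.7.3a were used with hg38, with Trim Galore 0.6.5 and FastQC 0.11.9; the annotation release and strand setting are not given in the sources used here. Libraries were mRNA libraries from a directional kit, read as 100 bp pairs, per the labels' protocols. Another 30 columns of the table, all empty, were not used.

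Here expected counts were rounded (9.09% to 11.6% of values per library were not whole), library totals being 19833144 to 38008463, and 17459 genes passed edgeR 4.0.16's filterByExpr. The 27 libraries of 10 groups with at least 2 libraries entered 1 quasi-likelihood fit (R 4.3.3, TMM scaling, biological coefficient of variation 6.89%), with p-values adjusted over all genes at 0.05. Soyo-san, with 1 library per dose, was given as values only. DESeq2 1.42.0, length and GC offsets (mgcv 1.9.3) and the other alternatives are named in the closing section. The fit was tested on counts simulated for Soshiho-tang 500 µg/mL against vehicle, with 17459 genes drawn. It recovered 100 of 100 genes changed by 1 and 61 of 100 changed by 0.5 on the log2 scale, with 10 false calls. The changed genes were all above 5 CPM. Every simulated gene had the same set spread, unlike real genes, so these numbers do not give error rates for these libraries. Gene names matched 56558 of 60675 IDs, of which 41209 had a symbol; transcript lengths and gene coordinates came from GENCODE 29, promoters from RefSeq. Figures were drawn with matplotlib.

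Members named in detail were NDUFB1, the 6 core subunits, up to 3 called, non-overlapping members with the largest change per direction and comparison, the highest and lowest per length, and the genes most like NDUFB1. NDUFB9, NDUFS6, NDUFC2, NDUFA13, NDUFAB1 and the short members beside NDUFB1 in length were chosen after their values were seen. The members and lists were chosen with earlier results of these data known. Replicate numbers were not taken as pairs; the check is in the closing section.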

Additional observations from a re-analysis of the deposited data

Results flagged for a closer look

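Soyo-san had 1 library at each dose and entered no test, so its values were looked at for signal above the vehicle libraries. NDUFB1 had 62.4, 49.2 and 48.5 CPM at 20, 100 and 500 µg/mL, the lowest being 48.5 CPM, above the highest vehicle library at 30.7 CPM. Of the 36 members, 25 lay above the highest vehicle library in each of the 3 Soyo-san libraries. Those below the lowest vehicle library in each numbered 0. The share of all genes that did so is not given here, so these counts are not set against a background. All 3 Soyo-san libraries came from batch D and all vehicle libraries from batch E, so extract and batch cannot be told apart for them.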

How the results depend on the processing

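NDUFB1 kept its direction against vehicle in all 141 alternatives, at log2 0.37 to 1.38, and was past the threshold in 140; with only Okbyeongpung-san 500 µg/mL and vehicle in the fit it was 0.73 at an adjusted p of 0.0595. Its difference between Yijin-tang 500 and 20 µg/mL, not called, turned to -0.035 (adjusted p 0.956) without Yijin-tang 20 µg/mL replicate 1 and ran up to 0.192 without other libraries. Counts of members called moved by over 1.5 times as follows, and the cause was not tested. Without a filter on low counts they were 25 for Soshiho-tang 20, 25 for Yijin-tang 20, 27 for Yijin-tang 500 and 20 for Okbyeongpung-san 500 µg/mL against vehicle, 5 for Soshiho-tang 500 against 20, 3 for Okbyeongpung-san 500 against 20 and 5 for Soshiho-tang against Yijin-tang. With only the 2 groups in the fit they were 24 and 26 for Soshiho-tang 500 and 20, 28 for Yijin-tang 500, and 5, 31 and 32 for Okbyeongpung-san 500, 100 and 20 against vehicle, 5 for Soshiho-tang 500 against 20 and 4 for Soshiho-tang against Yijin-tang, while the share of all genes called higher against vehicle ran from 1.17% for Okbyeongpung-san 500 to 22.5% for Soshiho-tang 500 in that fit and was 9.22%, 13.4%, 13.8% and 14.5% for Soshiho-tang 20, Yijin-tang 500 and Okbyeongpung-san 100 and 20. Without batch D, which leaves 1 library in each Okbyeongpung-san arm, they were 10 and 9 for Okbyeongpung-san 100 and 20 against vehicle, 2 for its 500 against 20 and 1 for Soshiho-tang against Yijin-tang; DESeq2 called 2 for Okbyeongpung-san 500 against 20. A length and GC offset gave 16 for Okbyeongpung-san 500 against vehicle, and thinning to the smallest library gave 1 for Soshiho-tang 500 against 20. NDUFB1 made up 2.95% of member counts in treated and 1.66% in vehicle libraries without the most abundant member.

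Replicate numbers were not taken as pairs, since not every pair's correlation was over 0.1: deviations of same-numbered libraries correlated at a median of 0.019 (lowest -0.188, 19 of 111 pairs over 0.1), beside -0.0105 for other pairs. Among Soshiho-tang and Yijin-tang libraries the 15 pairs numbered 1 were all above 0 (0.023 to 0.305), against 8 of 15 numbered 2 and 12 of 15 numbered 3. With the replicate block the counts were 15, 16 and 16 for Soshiho-tang and 15, 26 and 17 for Yijin-tang at 20, 100 and 500 against vehicle. For Okbyeongpung-san they were 21, 19 and 14. Of all genes, 4.61% to 17.9% were called higher over these 9 comparisons. The same fit called 2 members for Soshiho-tang 500 against 20, 2 for Soshiho-tang against Yijin-tang and 0 in the others. Of 17459 genes, 1929 were called higher and 1913 lower in the first of these, and 1210 and 1234 in the second. With a length and GC offset as well, 19 members were called for Okbyeongpung-san 500 against vehicle, beside 6.48% to 19.7% of all genes over the 9 comparisons. For Soshiho-tang 500 against 20 there were 5, beside 2359 higher and 2448 lower of 17459 genes.

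Leaving out a library in turn gave 7 to 17, 3 to 19 and 9 to 14 members for Soshiho-tang at 20, 100 and 500 against vehicle, 4 to 16, 15 to 26 and 9 to 17 for Yijin-tang and 7 to 14, 2 to 13 and 3 to 12 for Okbyeongpung-san. For 500 against 20 it gave 1 to 3 with Soshiho-tang, 0 with Yijin-tang and 0 to 4 with Okbyeongpung-san, and 0 to 1 for Soshiho-tang against Yijin-tang. For the fold changes of named members, 336 of the alternatives that kept all libraries or removed a batch gave the same call, 7 gained it, 7 lost it and 0 reversed; leaving out a library, 148 gave the same call, 1 gained it, 49 lost it and 1 reversed. The vehicle group had 3 libraries, which limits the precision of all comparisons with it. Each was shallower than every treated library. Treatment and any other difference that set the vehicle libraries apart therefore cannot be told apart in these comparisons.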
